A study of Mus musculus with 6 samples.

Results

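Monoamine transmitters are made, packed, released and taken back by a small set of proteins, and the 10 genes described here encode most of them together with 2 dopamine receptors. They were read on 6 single-colour Affymetrix arrays of brain tissue, cerebellum in the series title, from 3 Gb5-deficient mice (KO arrays 4, 5 and 6) and 3 wild-type mice (WT arrays 1, 2 and 3). Gb5 is the G protein beta subunit encoded by Gnb5, a partner of the R7 family of RGS proteins, which shorten signalling through Gi/o-coupled receptors, D2 dopamine receptors among them. The labels describe littermates matched for age and sex and call the 3 arrays of a genotype biological replicates. Strain, age, the part of Gnb5 that was deleted and the borders of the dissected tissue are not given in the sources used here.

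The genes were chosen by name, and every probe annotated to 1 of these symbols alone was taken, which gave 17 probes for 10 genes, of 34945 single-gene probes for 18193 genes on the array. Slc6a3 had been seen lower in the KO arrays before the list was made, so its difference between genotypes is given as a description and carries no test. The other 9 genes were added for their function. A gene was represented by its brightest probe. All 10 passed the filter on low signal, a mean above 4.70 on the log2 scale, which kept 14067 of the 18193 genes.

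Dopamine and noradrenaline share a pathway. Tyrosine hydroxylase (Th) makes L-DOPA, aromatic amino acid decarboxylase (Ddc) turns it into dopamine, and dopamine beta-hydroxylase (Dbh) turns dopamine into noradrenaline inside vesicles. Tryptophan hydroxylase 2 (Tph2) starts neuronal serotonin synthesis, which Ddc completes, and the vesicular transporter Slc18a2 loads all of these amines. The plasma membrane transporters Slc6a3, Slc6a2 and Slc6a4 take back dopamine, noradrenaline and serotonin, in that order, and Drd1 and Drd2 encode the main Gs-coupled and Gi/o-coupled dopamine receptors. The cell bodies of dopamine, noradrenaline and serotonin neurons lie in the midbrain and brainstem and send fibres to the cerebellum. Th is also known in the mouse from Purkinje cells of some ataxic mutants.

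The arrays matched their genotype labels for the targeted gene: the brightest Gnb5 probe read 3.65, 3.36 and 2.96 (log2) in KO arrays and 8.80, 8.51 and 8.70 in WT arrays. It is not known whether that probe lies in the deleted part. KO array 6 stood apart, with 8.22 for the brightest Xist probe against 11.17 to 11.64 on the other 5 arrays and 11.80 for the Y-linked gene Eif2s3y against 3.19 to 3.43, so the sexes of the animals do not look matched. WT array 1 also stood apart, with growth hormone (Gh) signal of 10.55 against 4.88 to 5.86 on the other 5 arrays. Genes that define Purkinje and granule cells were bright on every array, with the Purkinje gene Pcp2 at 12.7 in KO and 12.6 in WT arrays on average, and the granule cell receptor subunit Gabra6 at 12.5 and 12.6. Array medians lay between 6.48 and 6.57.

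Of the 10 genes, 4 had negative differences between KO and WT means: Slc6a3, Th, Slc18a2 and Ddc. A negative value was found in 43.3% of all genes tested. Their promoter windows, taken from the RefSeq table (GRCm38.p6, 250 bases before to 50 after a start site, 5′ to 3′), are shown as a description of these 4 genes, which were picked after their values were seen. Capitals mark matches to 4 motifs searched on both strands: the NR4A monomer site AAAGGTCA, the cyclic AMP response element TGACGTCA, the Pitx3 site TAATCC and the TATA box TATAAA.
Slc6a3, chr13:73536497-73536796, plus strand: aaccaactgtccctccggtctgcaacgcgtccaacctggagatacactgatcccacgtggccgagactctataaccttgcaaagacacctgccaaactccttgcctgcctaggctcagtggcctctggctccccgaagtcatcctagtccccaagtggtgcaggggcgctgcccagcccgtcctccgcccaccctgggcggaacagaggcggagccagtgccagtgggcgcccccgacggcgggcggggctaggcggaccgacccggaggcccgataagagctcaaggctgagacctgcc
Th, chr7:142899946-142900245, minus strand: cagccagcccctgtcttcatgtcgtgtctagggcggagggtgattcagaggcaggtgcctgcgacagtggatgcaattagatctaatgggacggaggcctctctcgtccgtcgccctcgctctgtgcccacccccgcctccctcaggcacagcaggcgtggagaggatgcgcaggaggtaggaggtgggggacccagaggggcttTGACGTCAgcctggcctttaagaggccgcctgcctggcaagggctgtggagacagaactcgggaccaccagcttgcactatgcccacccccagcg
Slc18a2, chr19:59260628-59260927, plus strand: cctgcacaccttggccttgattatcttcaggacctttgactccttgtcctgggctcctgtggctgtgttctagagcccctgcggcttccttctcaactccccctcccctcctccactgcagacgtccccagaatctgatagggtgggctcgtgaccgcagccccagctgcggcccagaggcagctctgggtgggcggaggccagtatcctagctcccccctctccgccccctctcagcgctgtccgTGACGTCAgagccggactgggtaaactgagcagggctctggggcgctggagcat
Ddc, first listed start, chr11:11898095-11898394, minus strand: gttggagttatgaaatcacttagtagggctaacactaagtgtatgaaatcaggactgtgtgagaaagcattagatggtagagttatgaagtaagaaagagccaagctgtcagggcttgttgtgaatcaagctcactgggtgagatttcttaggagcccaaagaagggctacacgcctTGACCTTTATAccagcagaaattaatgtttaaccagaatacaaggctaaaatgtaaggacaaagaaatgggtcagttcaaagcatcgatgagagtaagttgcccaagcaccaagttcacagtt

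The Th window held 1 cyclic AMP response element, with its first base at -45 from the start, and the Slc18a2 window held 1 at -4. That motif is in 1.79% of the 32851 promoter windows of the table. The first Ddc window held the NR4A site on the opposite strand at -73, overlapping a TATA box match, and the NR4A site is in 1.51% of all windows. The second Ddc window, not printed here, held none of the 4 motifs. None of the 4 motifs was found in the Slc6a3 window, which says only that these letters are not in it. Pitx3 sites, in 7.06% of all windows, were in none of the 11 windows listed for 9 of the 10 genes. TATA boxes, in 13.6% of all windows, were in 2 of the 11, the first Ddc window and that of Tph2. The Slc6a3, Th and Slc18a2 windows had 66.0%, 64.3% and 64.0% G or C, against a median of 52.7% over all windows. The first Ddc window had 41.3% and the second 54.3%.

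How far these genes stood above background was measured against 147 probes of genes not expected in brain, those of odorant, vomeronasal and taste receptors, hair keratin-associated proteins and beta-defensins. The 95th percentile of their means, 4.97 (log2), is called the background line. As a second reading of background, 9 probes of Y-linked genes gave 2.47 to 3.72 on the 5 arrays with high Xist. All 10 genes lay above the line by their brightest probe, as did 75.1% of the 18193 genes with a single-gene probe. The margins were 6.37 for Slc6a3, 5.72 for Slc6a4, 5.34 for Tph2, 4.80 for Ddc, 4.36 for Slc18a2 and 4.27 for Slc6a2 on the log2 scale. Th stood 3.41 above it, Drd2 2.96, Dbh 2.12 and Drd1 1.10. Probes differ in brightness for the same amount of RNA, so these margins do not rank the genes by transcript level. With the line at the 99th percentile, 6.76, 9 genes lay above it and Drd1 did not.

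**Figure D1:**
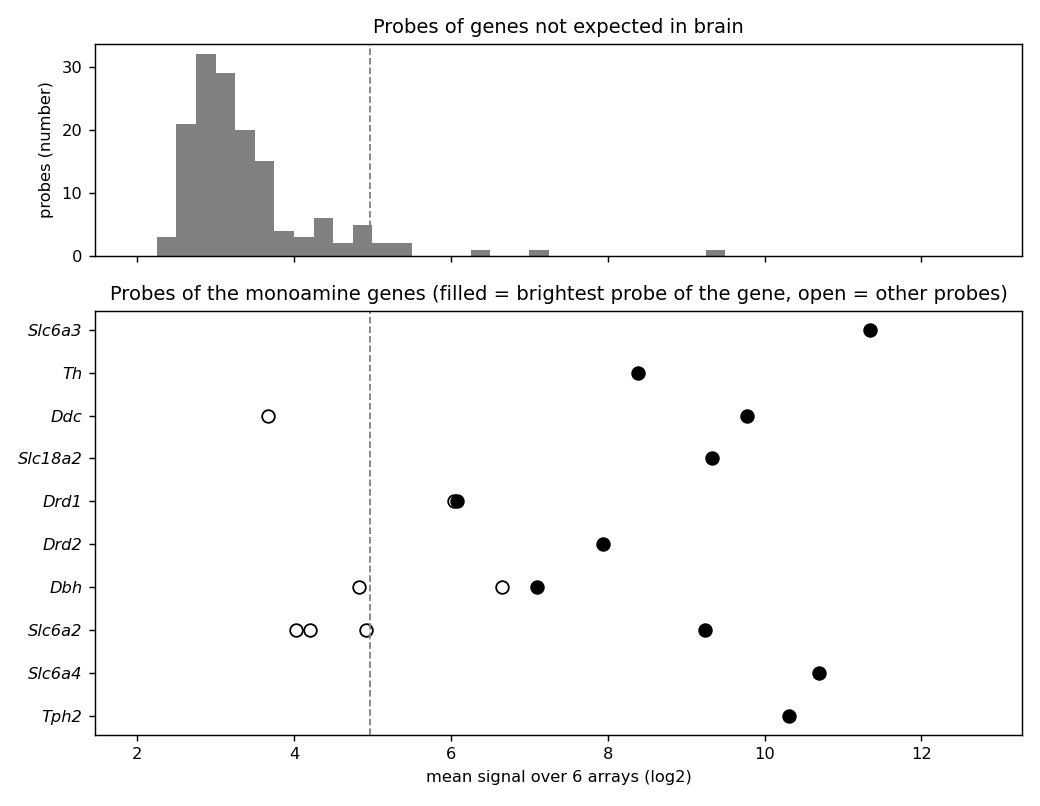
Mean signal over 6 arrays (log2, x axis) of 147 probes of genes not expected in brain (upper panel, number of probes) and of the 17 probes of the 10 monoamine genes (lower panel). The dashed line at 4.97 is the 95th percentile of the upper set; every filled point, the brightest probe of a gene, lies to its right, and 5 open points lie to its left.

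Probe by probe the picture was less even, with 12 of the 17 probes above the line, against 71.3% of all single-gene probes. The noradrenaline transporter Slc6a2 had 4 probes, and only 1 was bright, with a mean of 9.24. The other 3 averaged 4.92, 4.20 and 4.02, all under the line, and the one at 4.20 is the only Slc6a2 probe that the annotation ties to a RefSeq mRNA. The brightest probes of Ddc, Slc18a2, Drd1, Dbh and Tph2 also have no such tie. Whether such probes read the transcripts they are named for was not tested. Ddc likewise had a bright probe, at 9.77, and a dim one, at 3.67. The 3 Dbh probes averaged 7.09, 6.65 and 4.82, and the 2 Drd1 probes 6.08 and 6.04. Slc6a3, Th, Slc18a2, Drd2, Slc6a4 and Tph2 had 1 probe each.

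The serotonin genes Tph2 and Slc6a4, known from cell bodies of the raphe nuclei, thus read 5.34 and 5.72 above the line in tissue named as cerebellum. Other genes of serotonin neurons were also measured: Gata2, Gata3, the autoreceptor Htr1a and Lmx1b stood 2.80, 2.61, 2.02 and 0.55 above the line, in that order. Among 12 measured genes of midbrain dopamine neurons, Pitx3 and Lmx1a, which direct their development, lay under the line at 4.06 and 3.15. The other 10 lay above it, as did 75.1% of the 18193 genes with a single-gene probe. En1, Foxa2 and Lmx1b were the nearest of the 10 to the line, at 0.11, 0.24 and 0.55 above it. Some of the 10, such as Otx2 and Nr4a2, are also expressed in other cells of this region. Among the noradrenergic list the transcription factors Phox2a and Hand2 lay under the line, at 4.31 and 4.69. The other measured genes of that list, Slc6a2, Gal and Dbh, stood 4.27, 2.88 and 2.12 above it. The labels do not say how much tissue next to the cerebellum the samples held, and its share was not tested.

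Slc6a3 showed the widest gap between genotypes of the 10 genes. It read 11.20, 10.19 and 10.66 (log2) in KO arrays 4, 5 and 6, against 11.75, 12.14 and 12.15 in WT arrays 1, 2 and 3. All 3 KO arrays lay below all 3 WT arrays, and KO array 5 was the lowest of the 6. The means were 10.68 ± 0.51 in KO and 12.01 ± 0.23 in WT (SD, n = 3 each). KO minus WT was -1.33 on the log2 scale, or a ratio of 0.398 in linear signal. The lowest KO reading, 10.19, was above the background line of 4.97. In bulk tissue, fewer cells of a type and less RNA per cell cannot be told apart.

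**Figure D2:**
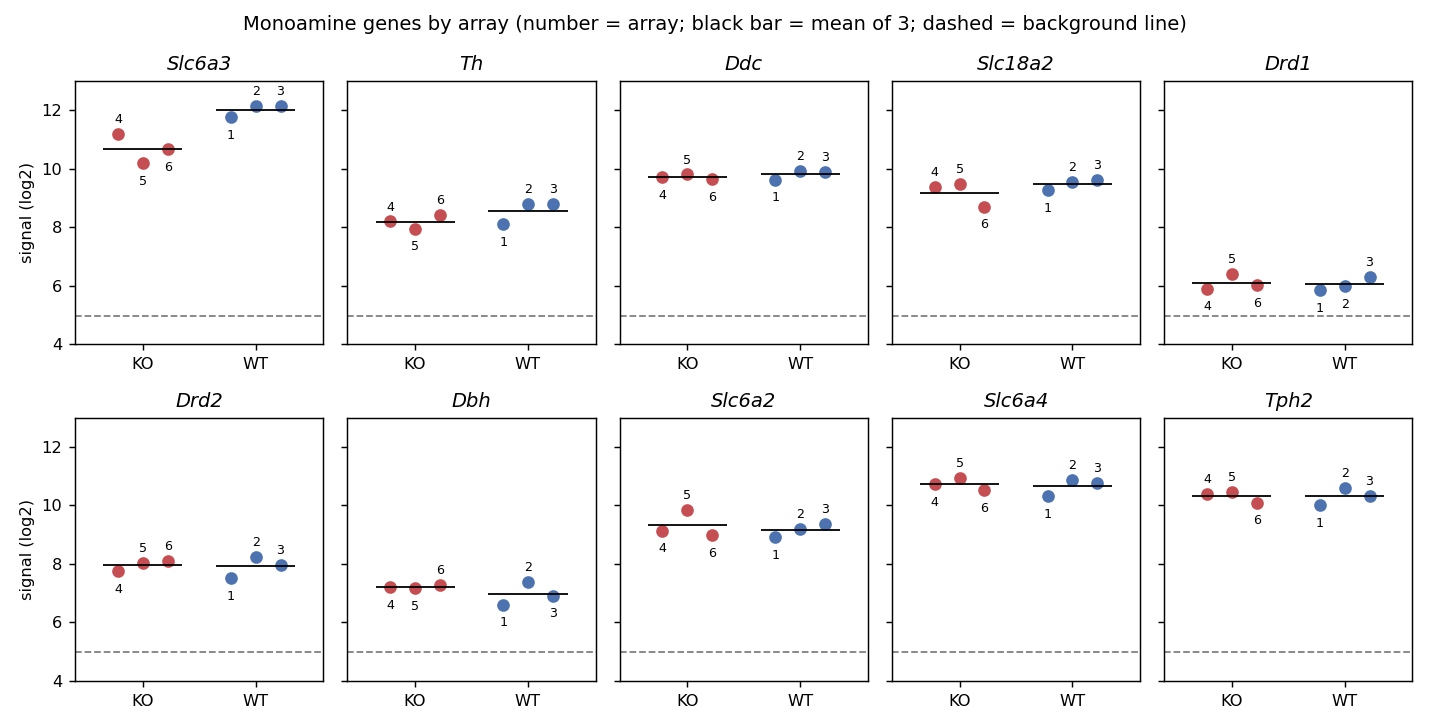
Signal (log2, y axis) of the brightest probe of each gene in the 3 KO arrays (red, left) and the 3 WT arrays (blue, right), with the array number beside each point, the mean of 3 as a black bar and the background line at 4.97 dashed. The groups do not overlap for Slc6a3 and overlap for the other 9 genes.

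Th, the first enzyme of dopamine and noradrenaline synthesis, did not pass the test. It read 8.20, 7.95 and 8.43 in KO arrays, against 8.10, 8.79 and 8.80 in WT arrays. WT array 1 lay within the KO range, and the other WT arrays lay above all KO arrays. The log2 fold change was -0.37 (SE 0.21, 95% interval -0.84 to 0.10), with a limma adjusted p of 0.612 over the 14067 genes. Slc18a2, which fills vesicles with dopamine, noradrenaline and serotonin alike, read 9.37, 9.47 and 8.70 in KO arrays and 9.28, 9.54 and 9.63 in WT arrays. KO array 6 was low, while the other KO arrays lay among the WT arrays. Its log2 fold change was -0.30 (95% interval -0.75 to 0.15; limma adjusted p = 0.635), and without KO array 6 it was -0.06. Ddc read 9.72, 9.81 and 9.64 in KO arrays and 9.63, 9.93 and 9.90 in WT arrays, with a log2 fold change of -0.10 (95% interval -0.35 to 0.15; limma adjusted p = 0.754). These 3 intervals reach to both sides of 0.

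The receptors showed no difference beyond the spread between arrays. Drd2, whose Gi/o signalling R7 RGS proteins are known to limit, read 7.74, 8.04 and 8.10 in KO arrays and 7.51, 8.25 and 7.98 in WT arrays. The KO arrays lay inside the WT range, and the log2 fold change was 0.05 (95% interval -0.39 to 0.48; limma adjusted p = 0.938). The brightest Drd1 probe read 5.90, 6.41 and 6.01 in KO arrays and 5.85, 5.98 and 6.31 in WT arrays. Its log2 fold change was 0.06 (95% interval -0.34 to 0.45; limma adjusted p = 0.917), and that of the other Drd1 probe was -0.21, so the 2 probes had opposite signs. Over the 6 arrays this probe lay between 5.85 and 6.41, the nearest to the background line of the 10 genes.

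Neither noradrenaline gene passed. Dbh read 7.21, 7.18 and 7.27 in KO arrays and 6.61, 7.38 and 6.92 in WT arrays. The KO arrays were tightly grouped, with an SD of 0.05, inside a WT range with an SD of 0.39. Its log2 fold change was 0.25 (95% interval -0.16 to 0.67; limma adjusted p = 0.652). The other Dbh probe above the line read 6.58, 6.92 and 6.90 in KO arrays and 6.39, 6.55 and 6.57 in WT arrays. There, as in 10.1% of all genes tested, the KO arrays all lay above the WT arrays, and the means differed by 0.30. Tested probe by probe with limma, it had an adjusted p of 0.600, and 0.0308% of probes passed. The bright Slc6a2 probe read 9.14, 9.84 and 8.99 in KO arrays and 8.93, 9.20 and 9.37 in WT arrays. KO array 5 was the highest of the 6, and the log2 fold change was 0.16 (95% interval -0.34 to 0.65; limma adjusted p = 0.804). Its 3 dim probes had differences of 0.07, -0.11 and 0.00.

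Neither serotonin gene passed. Tph2 read 10.41, 10.46 and 10.09 in KO arrays and 10.01, 10.61 and 10.32 in WT arrays, with a log2 fold change of 0.01 (95% interval -0.36 to 0.38; limma adjusted p = 0.989). Slc6a4, the serotonin transporter, read 10.73, 10.96 and 10.51 in KO arrays and 10.31, 10.88 and 10.78 in WT arrays. The groups overlapped, and the log2 fold change was 0.07 (95% interval -0.30 to 0.45; limma adjusted p = 0.883).

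Counted together, 0 of the 9 genes other than Slc6a3 passed an adjusted p of 0.05 in limma, where 5 of all 14067 genes passed (0.0355%), 4 of them lower in KO (0.0284%) and 1 higher (0.00711%). None of the 9 had an unadjusted p under 0.05 either, as 8.57% of all genes had. Their log2 fold changes ran from -0.37 for Th to 0.25 for Dbh, 3 negative and 6 positive, with a median of 0.05 against 0.03 over all genes tested. In 1 of the 10 genes, Slc6a3, every KO array lay below every WT array, as in 4.82% of all genes, and that 1 gene is the one the list was built on.

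**Figure D3:**
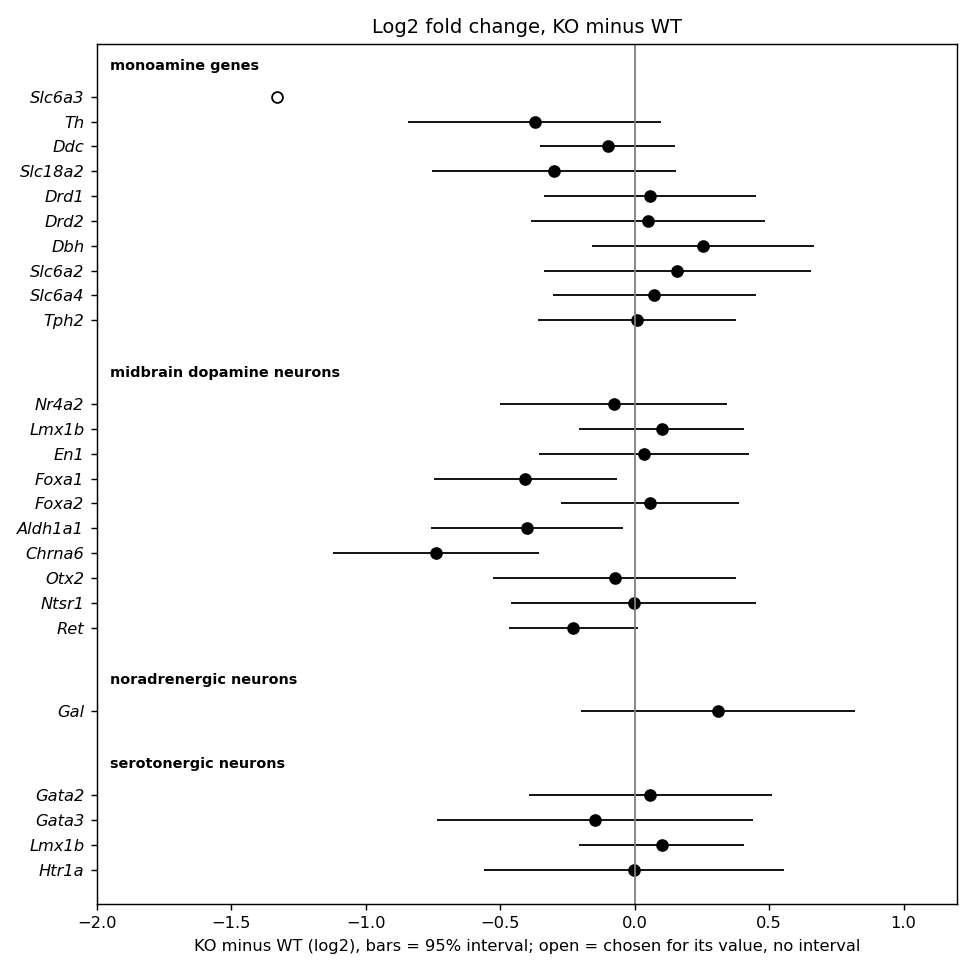
Log2 fold change, KO minus WT (x axis), of the 10 monoamine genes and of tested marker genes of midbrain dopamine, noradrenergic and serotonergic neurons, with 95% intervals from limma as bars. Slc6a3, open, is plotted without an interval; the 9 other monoamine genes have intervals that include 0, and with all 6 arrays those of Chrna6, Foxa1 and Aldh1a1 lie below 0.

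WT array 1 was the lowest WT array for all 10 genes. Over all genes tested it was the lowest WT array in 45.4%. Without it, the KO arrays lay below both remaining WT arrays for 4 of the 10 genes, against 8.19% of all genes: these were Slc6a3, Th, Ddc and Slc18a2. WT array 1 was left out after it was seen to be low for all 10, as it was for 45.4% of all genes, so the 2 shares cannot be set against each other. The log2 fold changes were then -1.46 for Slc6a3, -0.60 for Th (95% interval -0.96 to -0.24; limma adjusted p = 0.696), -0.40 for Slc18a2 (adjusted p = 0.978) and -0.20 for Ddc (adjusted p = 0.978). With another array left out, Th went both ways from its -0.37 with all 6 arrays. It was -0.25 without KO array 5, -0.26 without WT array 2 and -0.25 without WT array 3. It was -0.37 without KO array 4 and -0.49 without KO array 6. Dbh was 0.46 without WT array 2 (95% interval 0.14 to 0.78; limma adjusted p = 0.610), with all KO arrays above the remaining WT arrays. With all 6 arrays 10.1% of all genes had every KO array above every WT array, and the share without WT array 2 was not counted. Without WT array 1 the receptors moved as well, to -0.15 for Drd2 and -0.04 for Drd1, and so did Tph2 (-0.14) and Slc6a4 (-0.10). Dbh and Slc6a2 stayed above 0 without WT array 1, at 0.08 and 0.04. On WT array 1 the mean log2 signal of 8 granule cell genes was 12.07, against 11.87 on each of the other WT arrays, and that of 8 choroid plexus genes was 8.65 against 6.90 and 6.86. Their part in the low monoamine signal of that array was not tested.

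Among the KO arrays, the genes did not move as 1 block. KO array 5 had the lowest Slc6a3, Th and Dbh of the 3 but the highest Ddc, Slc18a2, Drd1, Slc6a2, Slc6a4 and Tph2. The 4 tested serotonin neuron genes besides Tph2 and Slc6a4 averaged 7.38 on that array, against 6.76 and 6.78 on KO arrays 4 and 6 and 6.81, 6.90 and 7.21 on WT arrays. Granule cell genes were lowest there, with a mean of 11.75 against 12.08 and 11.97 on the other KO arrays. KO array 6 was the lowest KO array for Ddc, Slc18a2, Slc6a2, Slc6a4 and Tph2 and the highest for Th, Drd2 and Dbh. Leaving out any 1 array kept the log2 fold change of Slc6a3 between -1.59 (without KO array 4) and -1.08 (without KO array 5). Without KO array 6, the one with Y-linked signal, it was -1.32.

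**Figure D4:**
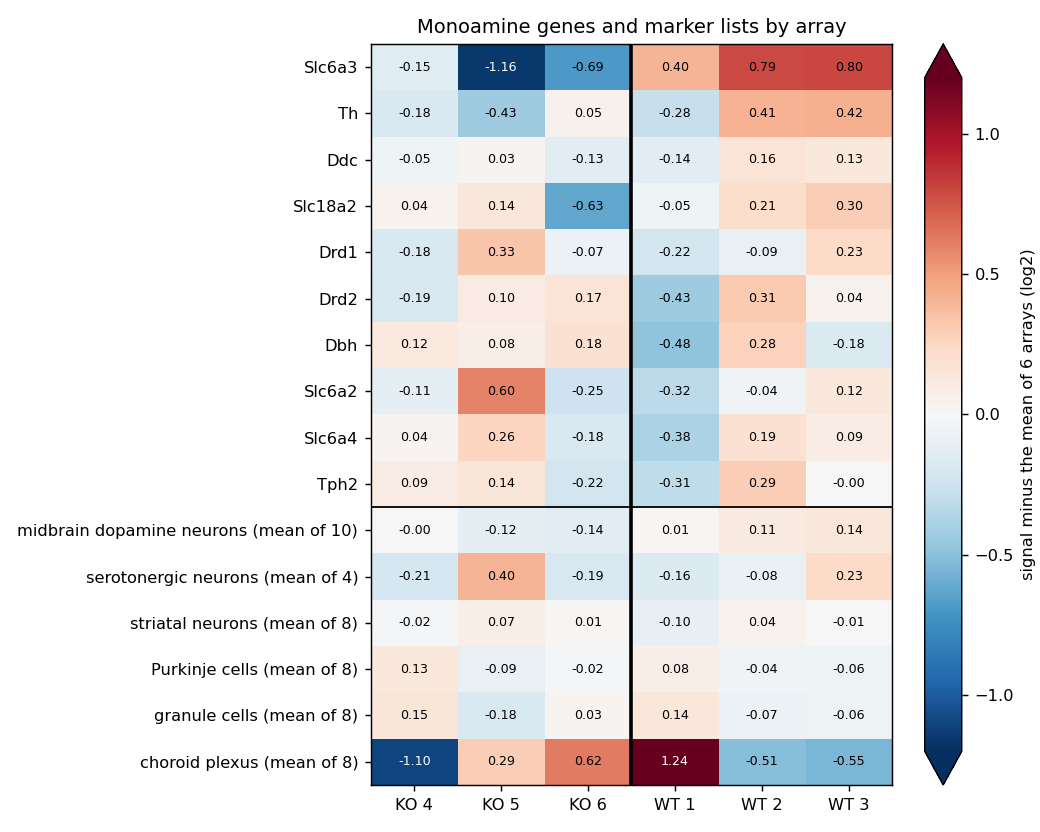
Signal minus the mean of the 6 arrays (log2, colour and printed value) for the 10 monoamine genes and, below the line, the mean of marker lists without these genes, with KO arrays left and WT arrays right. Slc6a3 is negative in all 3 KO arrays and positive in all 3 WT arrays, all 10 genes are lower on WT array 1 than on the other WT arrays, and the serotonin list is highest on KO array 5.

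Genes known from midbrain dopamine neurons gave values beside Slc6a3. Of 13 listed, 10 were tested, none passed in either direction, 7 had negative values, and the median log2 fold change was -0.08 against 0.03 over all genes. Chrna6, a nicotinic receptor subunit of dopamine terminals, read 6.54, 6.31 and 6.08 in KO arrays and 6.77, 7.13 and 7.26 in WT arrays. All KO arrays lay below all WT arrays, and the log2 fold change was -0.74 (95% interval -1.12 to -0.36; limma adjusted p = 0.383). With the mean of the Chrna6 probes it was -0.58. Foxa1, a forkhead factor of these neurons, also had no overlap, at 6.43, 6.42 and 5.96 in KO arrays and 6.57, 6.71 and 6.76 in WT arrays. Its log2 fold change was -0.41 (95% interval -0.75 to -0.06; limma adjusted p = 0.573). Without KO array 6 it was -0.25 (95% interval -0.54 to 0.0379), and the interval also included 0 without WT array 2 or WT array 3. Chrna6 and Foxa1 were 2 of the 10 genes without overlap in this direction, a share of 20.0% against 4.82% of all genes. The list was chosen with earlier results of these data known, so the 2 shares cannot be set against each other. Aldh1a1, an aldehyde dehydrogenase of a subset of dopamine neurons and of other cells, read 11.20, 10.52 and 10.89 in KO arrays and 11.33, 11.34 and 11.13 in WT arrays (-0.40, limma adjusted p = 0.574). KO array 4 lay among the WT arrays for this gene, and without KO array 5 the difference was -0.23 (95% interval -0.49 to 0.0383). The interval also included 0 without KO array 6, WT array 1 or WT array 2.

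Other genes of the list were near 0. Nr4a2, which drives Th and Slc6a3 transcription in these neurons, had a log2 fold change of -0.08, En1 0.04, Foxa2 0.06, Lmx1b 0.10, Otx2 -0.08 and the neurotensin receptor Ntsr1 0.00. The neurotrophic factor receptor Ret had -0.23 (95% interval -0.47 to 0.01; limma adjusted p = 0.596). Summed in linear units over the 10 genes, the list's signal was 5544 to 7036 in KO arrays and 6853 to 7545 in WT arrays. Averaged on the log2 scale, which weighs each gene equally, it was 7.57 to 7.71 in KO arrays and 7.73 to 7.85 in WT arrays. Without Chrna6, left out after its values were seen, the other 9 genes averaged 7.74 to 7.84 in KO arrays and 7.83 to 7.91 in WT arrays, and the groups overlapped. The part that the amount of midbrain tissue or of dopamine neurons has in the Slc6a3 values was not tested.

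Markers of the other monoamine neurons were also counted. In the serotonergic list 6 of 7 genes were tested and none passed, with a median log2 fold change of 0.03 and values from -0.15 for Gata3 to 0.10 for Lmx1b. Their 4 genes that are not among the 10 summed to 501 to 790 units in KO arrays and 526 to 709 in WT arrays. In the noradrenergic list 3 of 6 were tested, Dbh, Slc6a2 and the neuropeptide gene Gal (0.31), and none passed. Fev, the defining transcription factor of serotonin neurons, was not analysed here.

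Genes that make cofactor for the hydroxylases or break monoamines down held none that passed. Of 16 listed, 13 were tested, and the median log2 fold change was -0.02. Apart from Aldh1a1, the largest difference was that of Pts, an enzyme of tetrahydrobiopterin synthesis, at -0.25 (limma adjusted p = 0.771). It averaged 8.82 ± 0.71 in KO arrays and 9.08 ± 0.14 in WT arrays (SD, n = 3 each), and KO array 4 alone was low. Pcbd1 of the same list had 0.25 (limma adjusted p = 0.612), with every KO array above every WT array, as in 10.1% of all genes. The amine oxidases Maoa and Maob both had 0.03, and Gch1, the first enzyme of cofactor synthesis, -0.03.

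Of 26 other dopamine, noradrenaline and serotonin receptors listed, 11 were tested and none passed. Adra2c, a Gi/o-coupled noradrenaline receptor, read 7.58, 7.43 and 8.12 in KO arrays and 7.04, 7.27 and 7.04 in WT arrays. All KO arrays lay above all WT arrays, and the log2 fold change was 0.59 (95% interval 0.18 to 1.00; limma adjusted p = 0.529). With the mean of its probes it was 0.195, and without KO array 6 it was 0.39. Every KO array lay above every WT array in 10.1% of all genes. Htr4 had -0.29 (limma adjusted p = 0.721) and the dopamine receptor Drd4 -0.11, while Drd3 lay under the background line with a mean of 2.89. Genes of dopamine signalling inside receiving neurons, 8 tested of 10 listed, held none that passed, with Pde10a at -0.27 (limma adjusted p = 0.746), the phosphatase inhibitor Ppp1r1b at 0.24 (limma adjusted p = 0.638) and a median of 0.12. In the striatal list 8 genes were tested and none passed. The retinoic acid receptor Rarb read 7.52, 7.04 and 7.12 in KO arrays and 7.77, 7.71 and 7.61 in WT arrays. The groups did not overlap, and the log2 fold change was -0.47 (limma adjusted p = 0.524). Rarb was 1 of the 8 genes with every KO array below every WT array, or 12.5%, against 4.82% of all genes. The list was chosen with earlier results of these data known, so these shares cannot be set against each other.

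Lists of cells native to the cerebellum held no passing gene. The 8 tested Purkinje genes had a median of 0.01, with Slc1a6 at 0.13 and Car8 at -0.13, and the 8 granule cell genes a median of -0.03, with Fat2 at 0.35 and Gabra6 at -0.18. Choroid plexus genes (8 tested) had a median of -0.15, with Ttr at -0.56 and F5 at -0.53. Their summed signal ran from 3872 on KO array 4 to 15101 in KO arrays and from 11272 to 16544 in WT arrays. Averaged on the log2 scale, it was 6.30 to 8.03 in KO arrays and 6.86 to 8.65 in WT arrays. The part of choroid plexus tissue in the Slc6a3 values was not tested.

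The 5 genes whose profile over the 6 arrays was nearest to that of Slc6a3 were AI662270, Gm19531, Fbxo30, Gas8 and Tubd1. Likeness was the root mean square difference between profiles after each gene's mean was removed. It was 0.28, 0.28, 0.31, 0.35 and 0.35 log2 units for these genes, against 0.74 for a flat profile. They were picked for following Slc6a3, so their differences between genotypes, from -1.11 for Gm19531 to -0.65 for Tubd1, are a description. Th was 149th in this order, with 0.55, and Slc6a2, with 0.91, was the farthest of the 10 genes. The 7 others lay between these, from 0.65 for Slc18a2 to 0.85 for Dbh.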

How the data were processed

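The authors' deposited table holds log2 signal, 1 value per probe set and array. RMA and Partek were used, per the submitters' processing notes, which give no versions. RMA corrects background, quantile-normalizes arrays and summarises probes, so a change in total RNA would not be seen. No detection calls or scanner files were used here, and no batch label was given in the sources used here.

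Of 45101 probes, 64 controls were left out; the platform annotation gave 34945 a single gene, 932 several and 9160 none. Entrez identifiers gave current symbols from a RefSeq table (GRCm38.p6). The brightest single-gene probe stood for a gene, kept above the 30th percentile of probe means. R 4.3.3 with limma 3.58.1 fitted KO minus WT on 3 and 3 arrays, moderated with an intensity trend, two-sided, Benjamini-Hochberg adjusted over 14067 genes at 0.05; the median SE was 0.12, and the number of arrays limits the precision. The fit was tested on simulated data. A plain permutation of 3 against 3 arrays cannot reach 0.05 and was not used.

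The background line is the 95th percentile of probes whose symbol starts with Olfr, Vmn1r, Vmn2r, V1r, Tas2r, Krtap or Defb. Genes and lists were chosen with earlier results of these data known. Named genes are the 10 genes, Gnb5, passing genes or otherwise the 2 with the largest change of each list, and the 5 nearest profiles; others were named after their values were seen. Alternatives were other filters, normalizations, probe rules and variance models, array weights and each array left out. Figures were drawn with Python 3.11.15.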

Additional observations from a re-analysis of the deposited data

How the results depend on the processing

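No paired analysis was made, because the sample titles number the arrays 1 to 6 and do not tie a KO animal to a WT littermate. None of the 9 genes other than Slc6a3 passed under any of 15 alternatives, and Slc6a3 kept its negative sign in all 15, between -1.59 and -1.08. Th, Slc18a2 and Dbh also kept their signs in all 15. The count of genes passing over the whole table was 5, and became 8 with no filter, 3 with the filter at the 50th percentile and 8 with every probe tested on its own; with 1 array left out it ran from 2 to 10 (8 without KO array 4, 2 without KO array 6, 10 without WT array 1, 3 without either WT array 2 or WT array 3). With the background line at the 99th percentile 9 genes lay above it, and 12 of the 17 probes did at the 95th. The number of genes whose KO arrays all lay below the WT arrays was 1 to 4 with 1 array left out, the 4 coming without WT array 1.

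Values near 0 changed sign in places, and the cause was not tested. With array medians subtracted, Tph2 was -0.0175. With the mean of a gene's probes, Ddc was 0.0102, Drd1 -0.0771 and Pde10a 0.0524. With array weights, Drd1 was -0.11, Slc6a2 -0.0449, Slc6a4 -0.053, Tph2 -0.0572 and Car8 0.0289. With 1 array left out, the ranges that crossed 0 were -0.0945 to 0.187 for Drd1, -0.15 to 0.22 for Drd2, -0.0996 to 0.323 for Slc6a2, -0.0998 to 0.185 for Slc6a4, -0.14 to 0.16 for Tph2, -0.49 to 0.16 for Pts, -0.40 to 0.0583 for Gata3, -0.93 to 0.0887 for Ttr, -0.56 to 0.0424 for Pde10a, -0.0149 to 0.19 for Lmx1b, -0.32 to 0.0684 for Car8, -0.37 to 0.0195 for Gabra6 and -0.85 to 0.036 for F5. Fbxo30 passed without KO array 4 (limma adjusted p = 0.0414). With the mean of a gene's probes Fbxo30 was -0.26, against -0.91 by its brightest probe, and Gas8 was -0.25 against -0.80. AI662270, Gm19531 and Tubd1 were then -0.75, -1.11 and -0.65. Signal over background limits the dim probes, and Drd1 lies nearest to the line.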
